A study of Mus musculus with 12 samples.

Results

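The transcripts described here encode the proteasome, the protease complex that degrades ubiquitin-tagged proteins, and the activators that open it. They were chosen by name: every non-control probe of the arrays whose gene name was 1 of 35 listed members. The list held 7 alpha ring genes (Psma1 to Psma7), 7 beta ring genes (Psmb1 to Psmb7), 6 ATPases of the regulatory cap (Psmc1 to Psmc6), 11 other cap subunits of the Psmd series and 4 activators (Psme1 to Psme4), against 27962 gene names on the array. A probe of that name existed for 34 of the 35 members, 51 probes in all, and 33 members had a probe with enough signal to be tested among 15922 genes. Psme2 had no probe under its own name. The only probe of Psmd13, a cap subunit, was not well above background on any array, so it has no difference here.

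The proteasome is a barrel of stacked rings. Outer alpha rings form the gate and inner beta rings carry the proteolytic sites. A regulatory cap with an ATPase ring binds ubiquitinated proteins, removes the ubiquitin, unfolds the chain and feeds it into the barrel. Psme1 and Psme2 form an interferon-responsive activator, Psme3 a nuclear one, and Psme4 encodes a large activator known from spermatids, where proteasomes take part in histone removal. In steroid-producing cells the proteasome sets the turnover of short-lived proteins, as it does in other cells.

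RNA came from Leydig cells, the testosterone-producing cells between the seminiferous tubules, cut by laser capture from frozen testis sections of male C57BL/6J mice aged 21 weeks. DEHP mice had received the plasticiser di-(2-ethylhexyl) phthalate by daily gavage for 21 days, dissolved in corn oil, at a dose of 200 mg per kg per day. Vehicle mice had received corn oil alone, and the labels name no genetic change in either group. The exposure had 4 mice in each group, per the labels. Arrays of 2 DEHP mice, numbered 1 and 4, and 3 vehicle mice, numbered 1, 2 and 4, were analysed here, each extract from 1 cap of 1 mouse and amplified for 2 rounds. Every DEHP mouse was hybridised against every vehicle mouse with the dyes both ways round, on 12 two-colour arrays and 3 slides. The mouse is the replicate, with n = 2 against n = 3. The question was which transcripts of the captured cells differed after DEHP.

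All levels below are log2 values of a mouse with the mean over the 5 mice set to 0, and differences are on the same scale. They compare mice within a gene and give no level of one gene against another. All 33 tested members had values on all 12 arrays. Between 35.5% and 54.4% of probe spots per array and channel were well above background. Of 10 Leydig cell markers fixed for the label check, all 10 were measured, and the hormone gene Insl3 and the cholesterol carrier gene Star were well above background on every array. The receptor gene Lhcgr was so on a share of 0.583 of the DEHP arrays and 0.833 of the vehicle arrays, and the regulator gene Nr5a1 on 0.25 and 0.5. Of 15 listed spermatid marker names, 14 were measured, all of them well above background on every array, so the captured material held germ cell transcripts in both groups. In such mixed material, fewer cells of a type and less RNA per cell cannot be told apart.

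No proteasome transcript passed the comparison of DEHP with vehicle mice. Of the 33 tested members, 13 lay above 0 and 20 below after DEHP, but 17 above and 16 below when each array was median-centred in place of loess, and 11 above and 10 below among the 21 members in the authors' deposited value table. Without DEHP mouse 4 the count was 23 above and 10 below. Over all 15922 genes, 7706 lay above 0 and 8216 below. The median difference was -0.08, against -0.01 over all genes. Psmc3, an ATPase of the cap, had the highest difference at 0.51, a 1.43-fold higher level, and Psma1, an alpha ring subunit, the lowest at -0.48. In limma with Benjamini-Hochberg adjustment 0 members had an adjusted p under 0.05, as had 0 of all genes (0%). At an unadjusted p under 0.05 there were 0 members and 138 genes (0.867%). The smallest unadjusted p among members was 0.0755, for the activator Psme3. The median standard error of a member's difference was 0.25, so the 95% intervals of single members were wide, and a p above the threshold does not show that groups were alike.

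**Figure D1:**
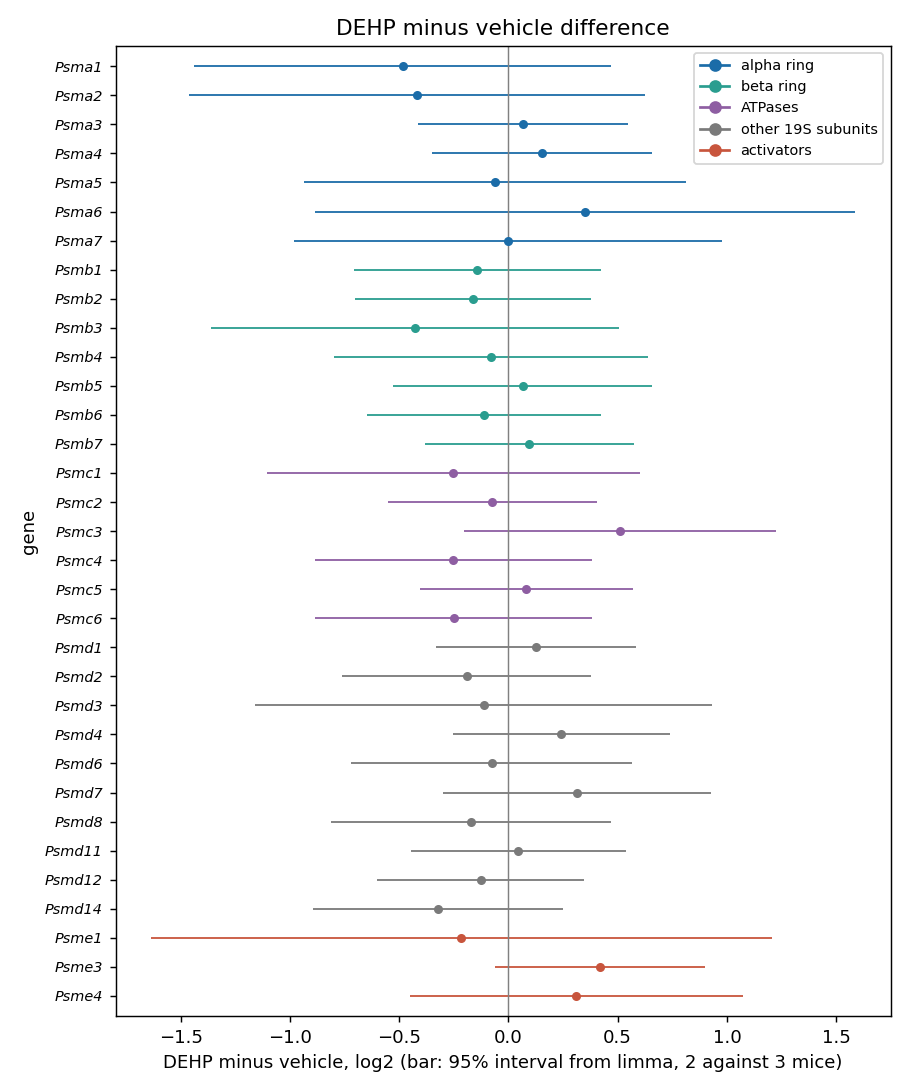
Log2 difference of DEHP minus vehicle mice for the 33 tested members, by role, each with its 95% interval from limma (2 against 3 mice). Every interval includes 0, and points run from -0.48 for Psma1 to 0.51 for Psmc3.

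The groups were without overlap for only a few members, and in Psmc3 and Psmd4 only by a small gap. In 3 members both DEHP mice lay above all 3 vehicle mice, namely Psmc3, Psmd4 and Psme3, where 3.94% of all genes did so. In 0 members did both lie below all vehicle mice, against 5.21% of all genes. After median centring only Psme3 of these 3 kept the separation, while the DEHP mice of Psmb3 lay below all vehicle mice. With the scanner software's processed signals and in the authors' deposited value table Psmc3 and Psme3 kept it and Psmd4 did not. Psmd1 gained it with the processed signals.

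**Figure D2:**
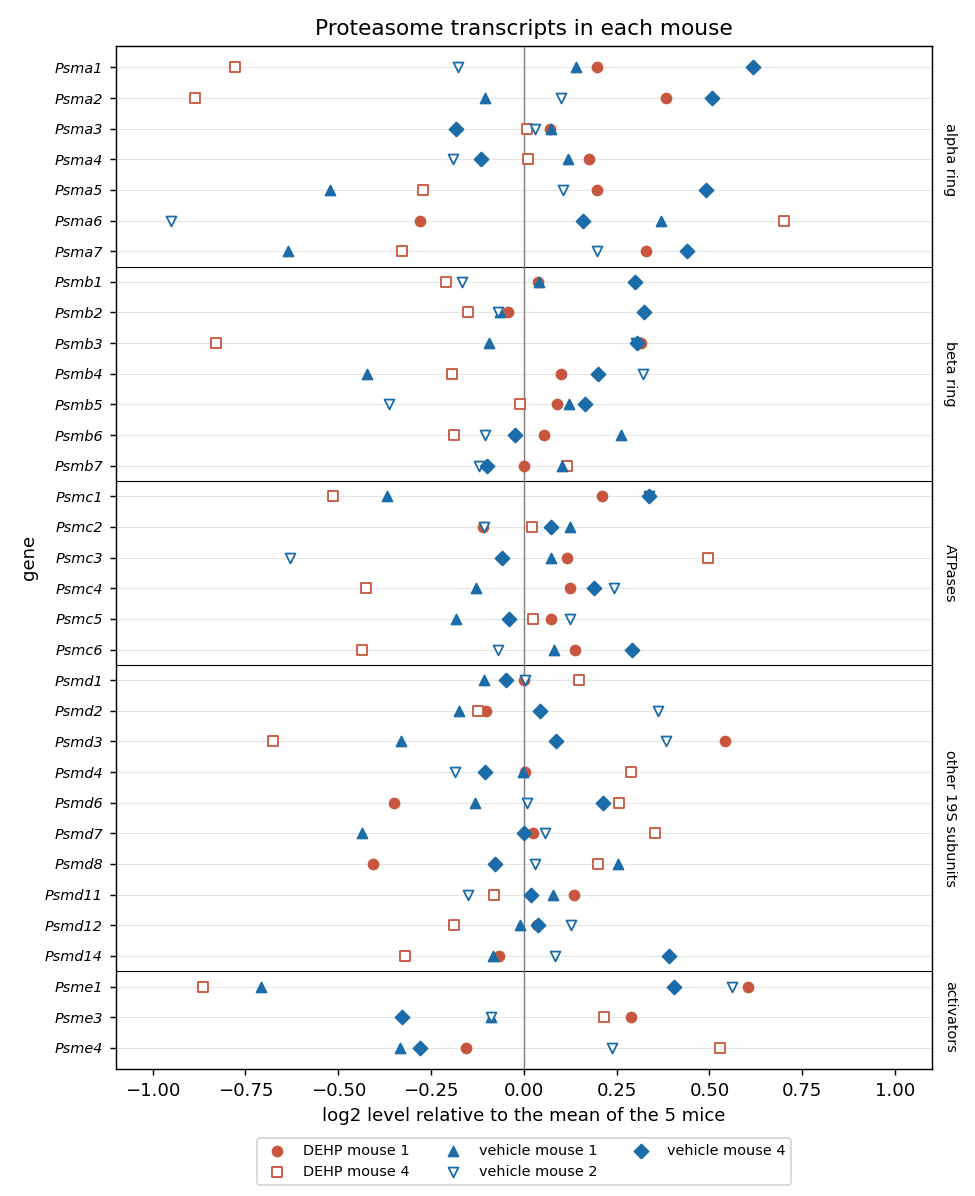
Log2 level by mouse, with the mean over the 5 mice at 0 (horizontal axis), for the 33 tested members, grouped by role. Red marks are DEHP mice, blue marks vehicle mice. In many rows the red marks lie far apart with blue marks between them, and only Psmc3, Psmd4 and Psme3 have both red marks to the right of all blue marks.

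The RefSeq promoter table for GRCm38.p6 held windows for 29 of the 35 members. Psmb1, Psmb2, Psmb7, Psmc3, Psmd3 and Psmd7 had none there. The 250 bases before the start are shown 5′ to 3′ for the members with the largest fall and the largest rise between mice of the same group, Psme1 (chr14:55578244-55578493, plus strand) and Psma6 (chr12:55398575-55398824, plus strand, the downstream one of its starts), and for members whose DEHP mice lay above all vehicle mice, Psme3 (chr11:101315963-101316212, plus strand) and Psmd4 (chr3:95042615-95042864, minus strand). Capitals mark matches on either strand to the antioxidant response core TGACNNNGC, the CCAAT box, the shortened interferon response motif GAAANNGAA, the cAMP response element TGACGTCA or the GC box GGGCGG. The motifs beginning with TGAC may overlap.
Psme1: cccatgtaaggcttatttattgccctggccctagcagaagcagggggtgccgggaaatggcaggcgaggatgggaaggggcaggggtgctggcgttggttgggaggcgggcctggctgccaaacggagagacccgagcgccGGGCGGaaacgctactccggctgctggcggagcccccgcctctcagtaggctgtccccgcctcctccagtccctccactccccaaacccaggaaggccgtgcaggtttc
Psma6: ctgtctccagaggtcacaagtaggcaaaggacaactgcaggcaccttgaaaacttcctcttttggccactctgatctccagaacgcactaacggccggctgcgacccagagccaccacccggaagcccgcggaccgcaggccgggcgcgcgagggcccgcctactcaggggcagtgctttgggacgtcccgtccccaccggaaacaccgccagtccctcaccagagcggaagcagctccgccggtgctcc
Psme3: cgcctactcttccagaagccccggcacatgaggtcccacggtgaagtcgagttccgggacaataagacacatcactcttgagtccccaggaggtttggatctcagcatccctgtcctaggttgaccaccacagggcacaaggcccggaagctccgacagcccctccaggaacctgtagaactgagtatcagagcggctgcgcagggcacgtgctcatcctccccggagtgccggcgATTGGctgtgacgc
Psmd4: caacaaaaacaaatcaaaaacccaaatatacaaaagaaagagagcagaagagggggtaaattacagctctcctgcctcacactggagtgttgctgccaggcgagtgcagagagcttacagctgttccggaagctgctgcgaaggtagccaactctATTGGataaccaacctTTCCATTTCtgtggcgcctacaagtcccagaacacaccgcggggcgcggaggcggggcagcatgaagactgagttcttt
Psme1 holds 1 GC box, Psme3 1 CCAAT box in reverse, Psmd4 a reversed CCAAT box and a reversed interferon motif, and the Psma6 window shown none of these letters. The upstream window of Psma6, not shown, holds 2 CCAAT boxes.

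Over all members with a window, 17 of 29 (58.6%) held a GC box, against 32.7% of all 32851 windows of the table. In windows rather than genes the members' share was 56.2%. A CCAAT box was found in 11 members, Psma6 among them through its upstream window (37.9%), against 33.8% of all windows. The antioxidant response core, the target of the proteasome regulators Nfe2l1 and Nfe2l2, was in Psmb5, Psmb6, Psmc6 and Psmd12 (13.8%), against 10.2%. The interferon motif was in Psmb3 and Psmd4 (6.90%, against 7.13%), and the cAMP response element in 0 of 29, against 1.55%. These matches are letters only and their shares were not tested.

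The alpha ring subunits form the outer rings and the gate. With 3 of the 7 genes above 0, 4 below and a median of 0.00, this class had no common direction after DEHP, and with median centring it had 5 above and 2 below. Psma1 was at 0.20 and -0.78 in DEHP mice 1 and 4, against 0.14, -0.18 and 0.62 in vehicle mice 1, 2 and 4. Only DEHP mouse 4 was low, and DEHP mouse 1 lay among the vehicle mice. The difference was -0.48 (SE 0.38, limma adjusted p = 1), with a 95% interval of -1.44 to 0.47.

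Psma2 had the same low mouse, with 0.38 and -0.89 in DEHP mice 1 and 4 against -0.11, 0.10 and 0.51 in the vehicle mice. Its difference was -0.42 (SE 0.42). Psma6 ran the other way, at -0.28 and 0.70 in DEHP mice 1 and 4, against 0.37, -0.95 and 0.16 in vehicle mice 1, 2 and 4. DEHP mouse 4 was the highest of the 5 mice and vehicle mouse 2 the lowest, so that the groups overlapped and the difference was 0.35 (SE 0.50). Its probe lies on mm7 chromosome 12, 53336175 to 53336234.

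Psma5 and Psma7 were lowest in a vehicle mouse. Psma5 stood at 0.20 and -0.27 in the DEHP mice, against -0.52, 0.11 and 0.49 in vehicle mice 1, 2 and 4, which gave -0.06 (SE 0.35). Psma7 stood at 0.33 and -0.33 in the DEHP mice, against -0.64, 0.20 and 0.44 in the vehicle mice, which gave 0.00 with a 95% interval of -0.98 to 0.98. In each of these genes vehicle mouse 1 was lowest and vehicle mouse 4 highest. Psma3 and Psma4, at mean log2 intensities of 6.45 and 6.70, were the dimmest of the ring and ranged over only 0.26 and 0.37 between mice. The offset added before the log compresses differences of such dim probes.

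The beta ring carries the active sites, in Psmb5 (chymotrypsin-like), Psmb6 (caspase-like) and Psmb7 (trypsin-like). The DEHP minus vehicle difference was above 0 for 2 of the 7 beta ring genes and below for 5, with a median of -0.11, and 3 above and 4 below after median centring. Psmb5 was at 0.09 and -0.01 in DEHP mice 1 and 4, against 0.12, -0.36 and 0.16 in the vehicle mice, with vehicle mouse 2 alone low. Psmb6 was at 0.05 and -0.19 against 0.26, -0.10 and -0.02, highest in vehicle mouse 1. Psmb7 was at 0.00 and 0.12 against 0.10, -0.12 and -0.10, but 0.75 of the DEHP arrays and 0.667 of the vehicle arrays had its probe well above background. The differences were 0.07 (SE 0.24), -0.11 (SE 0.22) and 0.10 (SE 0.19), with 95% intervals of -0.53 to 0.66 for Psmb5 and -0.65 to 0.42 for Psmb6. With the scanner software's processed signals Psmb7 was at 0.34.

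Among the non-catalytic beta subunits, Psmb3 had the lowest difference. It was at 0.32 and -0.83 in DEHP mice 1 and 4, against -0.09, 0.30 and 0.30 in vehicle mice 1, 2 and 4. DEHP mouse 4 was far below the rest and DEHP mouse 1 lay barely above vehicle mice 2 and 4, which gave -0.43 (SE 0.38). After median centring both DEHP mice lay below all vehicle mice. A second, dimmer probe of Psmb3 (mean log2 intensity 7.93 against 13.7) gave 0.02. It was at 0.05 and -0.02 in DEHP mice 1 and 4, against 0.17, -0.35 and 0.15 in vehicle mice 1, 2 and 4. Psmb2 was at -0.04 and -0.15 against -0.06, -0.07 and 0.32, a difference of -0.16 (SE 0.22) at a mean log2 intensity of 6.57. Only vehicle mouse 4 stood apart in Psmb2. With the processed signals the difference was -0.65.

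The ATPases unfold the substrate and thread it into the barrel. Their DEHP minus vehicle median was -0.16, with 2 of the 6 genes above 0 and 4 below under loess, under the scanner software's processed signals and under median centring. Psmc3 was at 0.12 and 0.50 in DEHP mice 1 and 4, against 0.07, -0.63 and -0.06 in vehicle mice 1, 2 and 4. The groups did not overlap, but the gap between DEHP mouse 1 and vehicle mouse 1 was small and vehicle mouse 2 lay far below the other vehicle mice. The difference was 0.51 (SE 0.29, unadjusted p = 0.129, adjusted p = 1 in limma), with a 95% interval of -0.20 to 1.23. Leaving out each mouse in turn gave 0.30 to 0.70, and the processed signals 0.75. Of 15 alternatives tried, 6 left this value as it was, but none of these 6 could have moved it. They changed the filter, the averaging of probes, the gene symbols or the dye term. Psmc3 has no other probe, and this one keeps its name and passes a stricter filter too. The dye effect cancels because each DEHP mouse met each vehicle mouse with the dyes both ways round. The probe lies on mm7 chromosome 2, 90907405 to 90907464.

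Psmc4 was at 0.12 and -0.43 in DEHP mice 1 and 4, against -0.13, 0.24 and 0.19 in the vehicle mice. DEHP mouse 4 was lowest, with DEHP mouse 1 within the vehicle range, and the difference was -0.25 (SE 0.26). Psmc1 and Psmc6 also had DEHP mouse 4 lowest, at -0.51 and -0.44, and differences of -0.25 each. Psmc2 and Psmc5 ranged over only 0.23 and 0.31 between the 5 mice, although Psmc2 was bright (mean log2 intensity 12.9).

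The other cap subunits include the scaffold, the ubiquitin receptors and the deubiquitinase. The DEHP minus vehicle difference was positive in 4 of the 10 measured genes and negative in 6 (median -0.10), and after median centring in 5 and 5. Psmd4, which encodes a ubiquitin receptor, was at 0.00 and 0.29 in DEHP mice 1 and 4, against 0.00, -0.19 and -0.10 in vehicle mice 1, 2 and 4. DEHP mouse 1 and vehicle mouse 1 differed only in the third decimal. The difference was 0.24 (SE 0.20), from 0.10 to 0.39 when each mouse was left out in turn. A second Psmd4 probe was not well above background on enough arrays to be used.

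Psmd14, the deubiquitinase that removes ubiquitin chains at the cap, was at -0.07 and -0.32 in DEHP mice 1 and 4, against -0.08, 0.08 and 0.39 in the vehicle mice. DEHP mouse 4 was lowest and DEHP mouse 1 lay just above vehicle mouse 1. The difference was -0.32 (SE 0.23). Leaving out each mouse in turn gave -0.45 to -0.19. With the processed signals and in the authors' deposited value table both DEHP mice of Psmd14 lay below all vehicle mice.

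Psmd7, a partner of Psmd14 in the cap, was at 0.02 and 0.35 in DEHP mice against -0.44, 0.06 and 0.00 in vehicle mice. Vehicle mouse 1 was low and DEHP mouse 4 high, and the difference was 0.31 (SE 0.25). Psmd3 was at 0.54 and -0.68 in DEHP mice 1 and 4, against -0.33, 0.38 and 0.09 in vehicle mice, which left -0.11 (SE 0.42) between the groups. The DEHP mice were the highest and the lowest of the 5. Psmd6 was at -0.35 and 0.26 in DEHP mice against -0.13, 0.01 and 0.21, again with the DEHP mice at the extremes, and its difference was -0.08 (SE 0.26). The remaining measured cap genes, Psmd1, Psmd2, Psmd8, Psmd11 and Psmd12, differed by -0.19 to 0.13.

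The activators bind the barrel in place of the cap. Psme3, which encodes the nuclear activator, was at 0.29 and 0.22 in DEHP mice 1 and 4, against -0.09, -0.09 and -0.33 in vehicle mice 1, 2 and 4. Both DEHP mice lay close together and above all vehicle mice. The difference was 0.42 (SE 0.19), a 1.34-fold higher level, with a 95% interval of -0.06 to 0.90 (unadjusted p = 0.0755, adjusted p = 1 in limma). Leaving out each mouse in turn gave 0.34 to 0.46. Its DEHP mice differed from each other by -0.07 (SE 0.06, adjusted p = 0.299 on the arrays). The probe, on mm7 chromosome 11 from 101431910 to 101431970, was well above background on all arrays.

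Psme4, the activator known from spermatids, was at -0.16 and 0.53 in DEHP mice 1 and 4, against -0.33, 0.24 and -0.28 in vehicle mice 1, 2 and 4. DEHP mouse 4 was the highest and vehicle mouse 2 lay above DEHP mouse 1. The difference was 0.31 (SE 0.31). Psme1, a subunit of the interferon-responsive activator, was at 0.60 and -0.86 in DEHP mice 1 and 4, against -0.71, 0.56 and 0.41 in vehicle mice. Its mice formed a low pair (DEHP mouse 4, vehicle mouse 1) and a high set of the other 3, and the difference of -0.22 had a 95% interval of -1.64 to 1.21.

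For the partner subunit Psme2 no probe carried that name. The probes named Psme2b-ps list transcripts of both Psme2 and its near-identical copy, so these cannot be told apart. The brighter one, on mm7 chromosome 14 from 50454846 to 50454905, was at 0.56 and -0.76 in DEHP mice 1 and 4, against -0.97, 0.44 and 0.73 in vehicle mice 1, 2 and 4. A second probe of that name passed the filter but, being dimmer, did not stand for the gene in the tests. It was at 0.44 and -0.43 in the DEHP mice against -0.77, 0.08 and 0.69. Both had the same low pair of mice as Psme1, whose probe lies on the same chromosome at 50448660 to 50448719.

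The spread within groups was examined next, by comparing mice of the same group through their repeated arrays. These tests compare RNA extracts and say nothing of conditions. DEHP mouse 4 differed from DEHP mouse 1 in 24 of 33 members in limma, 8 higher and 16 lower, where 36.2% of all genes were higher and 41% lower. For vehicle mouse 1, set against vehicle mice 2 and 4 averaged, 21 members differed, 6 higher and 15 lower, against 33.8% and 38.2% of all genes. The split of the first comparison turned with the normalization, and after median centring it was 21 members higher and 4 lower, with 54.6% of all genes higher and 16.3% lower. Median centring moved the median of all genes in this comparison from -0.05 to 0.30. The members' median minus that of all genes went from -0.12 to 0.17, so no direction of the proteasome as a whole can be given for these 2 mice. The second comparison had 5 higher and 13 lower after median centring and 10 higher and 16 lower with the processed signals, where 25.3% and 38.1% of all genes, then 34.7% and 36.9%, were higher and lower.

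**Figure D3:**
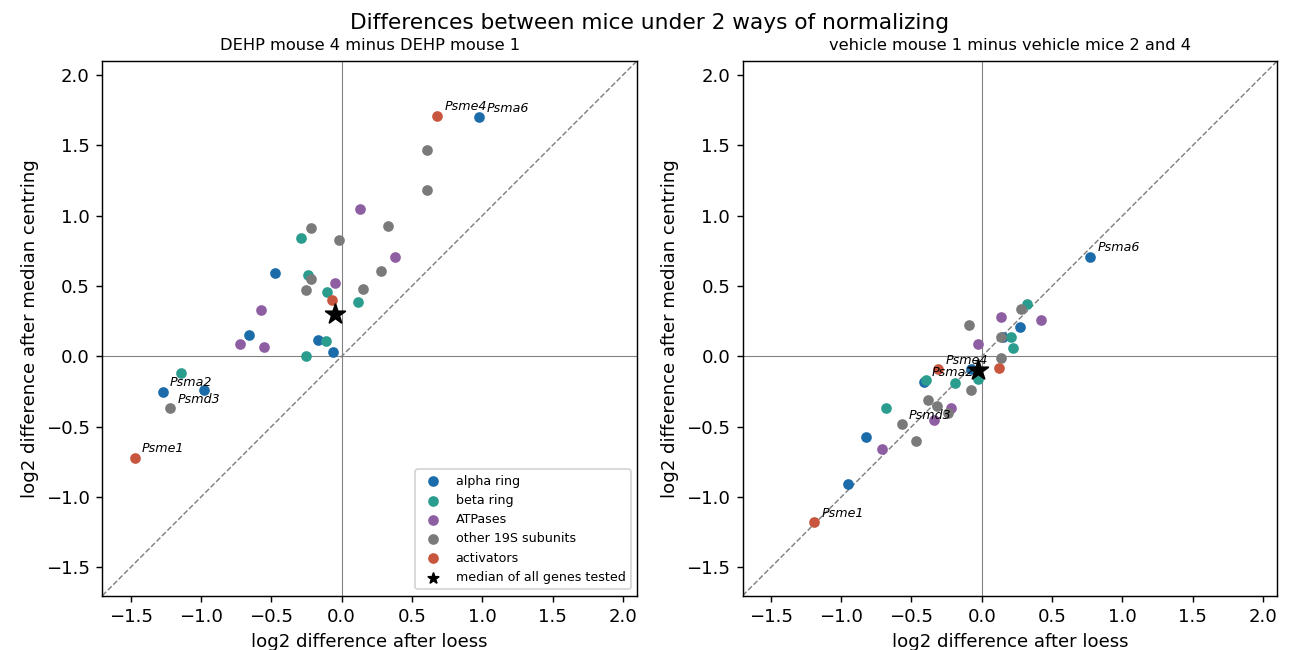
Log2 difference of each member after loess (horizontal axis) against that after median centring (vertical axis), for both comparisons of mice within a group; the star is the median of all genes tested and the dashed line marks equality. For DEHP mice 4 and 1 the points lie above the line and 21 members are called higher after median centring, while Psme1, Psmd3 and Psma2 stay below 0 and Psma6 and Psme4 are highest.

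Single members kept their direction where the whole did not. Between the DEHP mice, Psma6, Psmc3, Psmd1, Psmd4, Psmd6, Psmd7, Psmd8 and Psme4 were higher in mouse 4 under the 3 scalings, also after the median of all genes was taken off. Psma1, Psma2, Psmd3 and Psme1 were lower under the same rule. These are 8 and 4 of the 33 members, where 33.7% of all genes were higher and 15.4% lower under it. Between vehicle mouse 1 and the other vehicle mice, 4 members were higher under that rule (Psma6, Psmb6, Psmc3 and Psmd8) and 12 were lower, among them Psme1, Psma7, Psma5 and Psmd3, against 23.7% and 32.6% of all genes.

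Psme1, whose promoter is shown above, had the largest fall in both comparisons, by -1.47 (SE 0.05, limma adjusted p = 7.61e-10) between the DEHP mice and by -1.19 (SE 0.06, adjusted p = 8.02e-09) between the vehicle mice. After median centring these were -0.72 and -1.18. The brighter Psme2b-ps probe differed by -1.33 between the DEHP mice and the second by -0.87. Next among the falls between DEHP mice were Psma2 at -1.27 (SE 0.05) and Psmd3 at -1.22 (SE 0.07), then Psmb3 at -1.14, whose call was lost after median centring. The second, dimmer Psmb3 probe differed by only -0.07 between these mice. Psma2 and Psmd3 moved to -0.25 and -0.37 after median centring.

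Psma6, also shown above, had the largest rise in both, by 0.98 (SE 0.03, adjusted p = 5.06e-10) and 0.77 (SE 0.04, adjusted p = 6.88e-09). Between the DEHP mice it was followed by Psme4 at 0.68 (SE 0.05) and Psmd6 at 0.61 (SE 0.04), which after median centring were 1.71 and 1.18 with Psma6 at 1.70. Between the vehicle mice, by contrast, Psme4 and Psmd6 were lower in mouse 1, by -0.31 (SE 0.06) and -0.24 (SE 0.04), and the call on Psme4 was lost after median centring. Psma7 and Psma5 followed Psme1 among the falls of vehicle mouse 1, at -0.95 (SE 0.04) and -0.82 (SE 0.04). Psmc3 and Psmb6 followed Psma6 among the rises, at 0.42 (SE 0.07) and 0.32 (SE 0.05).

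Of the 33 members, 10 were lower in both comparisons (Psma2, Psma5, Psma7, Psmb3, Psmb4, Psmc1, Psmc4, Psmd3, Psmd14 and Psme1) and 3 were higher in both (Psma6, Psmc3 and Psmd8). That is 30.3% lower in both and 9.09% higher in both, against 28.4% and 24.8% of all genes under the same loess normalization. A further 5 members (15.2%, against 7.93% of all genes) went opposite ways, namely Psmb6, Psmd6, Psmd7, Psmd11 and Psme4. These counts depend on the normalization and rest on the brightest probe of each member. After median centring only Psmd3 and Psme1 were lower in both (6.06%, against 13.4% of all genes). Psma5, Psmb4 and Psmd14 were then called higher in DEHP mouse 4, by 0.59, 0.84 and 0.47, and so went opposite ways. With median centring 8 members did so (24.2%, against 11.4%) and 5 were higher in both (15.2%, against 23.6%). Psma6, Psmc3 and Psmd8 were higher in both under the 3 scalings. With the processed signals 11 members were lower in both, 5 higher in both and 5 opposite, against 27.9%, 25.9% and 8.38% of all genes. Whether the shares of members differ from those of other genes was not tested.

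Cell type markers differed between the same mice. For scale, 36.2% of all genes were higher and 41% lower in DEHP mouse 4 than in DEHP mouse 1. In vehicle mouse 1, 33.8% were higher and 38.2% lower than in the other vehicle mice. Leydig cell markers had medians of 0.67 and -0.74 in DEHP mice 1 and 4 and of -0.46, 0.22 and 0.40 in vehicle mice 1, 2 and 4. Of the 10 measured, 9 were lower in DEHP mouse 4 than in DEHP mouse 1 and 8 were lower in vehicle mouse 1 than in the other vehicle mice. Spermatid markers had medians of -0.01 and 0.83 in the DEHP mice and of 0.27, -0.64 and -0.42 in the vehicle mice, with 14 of 14 higher in DEHP mouse 4 and 13 higher in vehicle mouse 1. Macrophage markers had medians of 0.48 and -0.47 in the DEHP mice and of -0.43, 0.02 and 0.46 in the vehicle mice, lower in DEHP mouse 4 for 6 of 8. Peritubular myoid markers were lower in DEHP mouse 4 for 5 of 5, and all 5 lay below 0 in the DEHP minus vehicle difference, with a median of -0.86. Sertoli cell markers were above 0 in that difference for 0 of 8, with a median of -0.34. In 3 of them both DEHP mice were lowest, as in 5.21% of all genes. Endothelial markers were lower in DEHP mouse 4 and in vehicle mouse 1 for 4 of 4, and of 8 spermatocyte markers 6 were higher in each of these mice. The spermatid list was also above 0 in the DEHP minus vehicle difference for 14 of 14 genes, with a median of 0.67. Under median centring the Leydig list (medians of -0.81 and -0.87) and the spermatid list (1.67 and 0.85) kept their directions in both comparisons of mice. The part of cell makeup in the proteasome values was not tested.

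**Figure D4:**
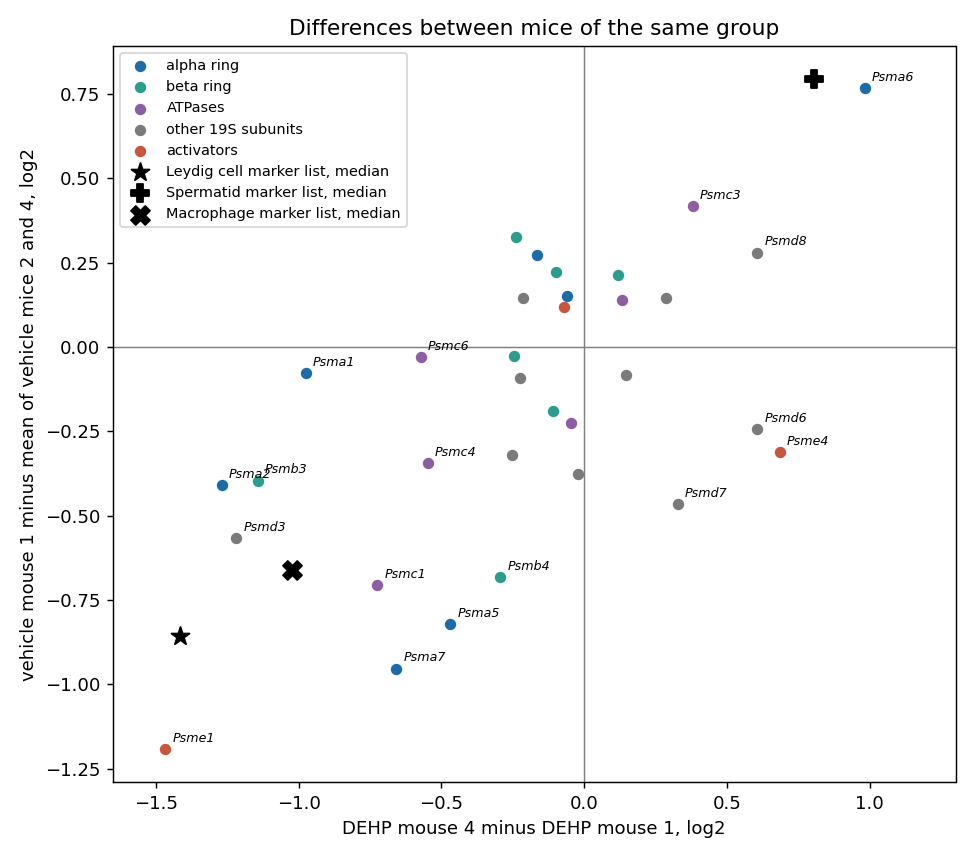
Difference of DEHP mice 4 and 1 (horizontal axis) and of vehicle mouse 1 from vehicle mice 2 and 4 (vertical axis), in log2 after loess, for the 33 members by role and, in black, the medians of 3 marker lists. Psme1 lies at the lower left beyond the Leydig cell median and Psma6 at the upper right near the spermatid median, while Psme4, Psmd6 and Psmd7 lie at the lower right.

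Several probes reported on 13 members, and 43 of the 51 member probes passed the filter. In no member with more than 1 such probe did the DEHP minus vehicle differences span more than 0.5. The widest spans were 0.45 in Psmb3 and 0.36 in Psmd7, whose probes gave 0.31, 0.46 and 0.09. For Psmd12 the bright probe gave -0.13 and a second -0.26. A second Psmd11 probe lies on the strand opposite to that of the first. It differed by 0.57 between DEHP mice 4 and 1 where the first differed by -0.22. Probes also lay apart in that comparison for Psmb3 (-1.14 and -0.07), Psmd12 (-0.22 and -0.81) and Psmd7 (0.33, 0.77 and -0.06). The probes of Psma4, Psmc4, Psmc6, Psmd2 and Psme4 lay closer together in it. Those of Psme4 still gave 0.68 and 0.23, and those of Psmc4 -0.55 and -0.20, the dimmer probe second. For Psme4 a second, dim probe (6.43 against 13.6 in mean log2 intensity) gave a DEHP minus vehicle difference of 0.11 where the first gave 0.31. Of the 51 probes, 21 have positions spanning more than 100 bases, and so cover an exon junction.

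Other genes of the pathway were followed by lists. Of 48 listed, 37 were measured, and 0 passed the DEHP comparison in limma (0 also at an unadjusted p under 0.05). Of the immunoproteasome and testis forms, 4 of 5 were measured. The interferon-inducible subunits Psmb8, Psmb9 and Psmb10 were lowest in vehicle mouse 1, at -0.31, -0.64 and -0.76, and highest in vehicle mouse 4, at 0.52, 0.53 and 0.62. Their DEHP minus vehicle differences were -0.02, 0.07 and 0.08. Psma8, the alpha subunit of meiotic and later germ cells, was at -0.17 in both DEHP mice, against 0.39, -0.14 and 0.09 in vehicle mice 1, 2 and 4, which gave -0.28 (SE 0.23) without overlap. DEHP mice 4 and 1 did not pass the test against each other for Psma8 (difference 0.00), whereas vehicle mouse 1 was higher than the other vehicle mice by 0.41.

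Of the regulators of proteasome genes 7 of 8 were measured, 2 above 0 and 5 below, with a median of -0.18. Nfe2l1, the factor that induces proteasome genes when proteasome activity drops, was at 0.47 and -0.77 in DEHP mice 1 and 4, against -0.55, 0.50 and 0.35 in vehicle mice 1, 2 and 4. The low mice were those in which Psme1 and the Leydig cell markers were low. Under loess 28.4% of all genes were lower in both comparisons of mice, so this pattern is not particular to these genes. The group difference of Nfe2l1 was -0.25 (SE 0.49). Maff, a small partner of these factors, was at -0.50 and -0.13 in DEHP mice against 0.01, 0.49 and 0.13, without overlap, a difference of -0.53 (SE 0.25, unadjusted p = 0.0764). Its relative Mafk also did not overlap (-0.18), but its signal cleared the background on no more than a share of 0.0833 of the DEHP arrays.

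Of the other cap, assembly and associated factors 11 of 17 were measured, 6 above 0 and 5 below. The 2 of lowest p were Usp14, a deubiquitinase of the cap, at -0.46 (SE 0.27), and AI314180, the array's name for the proteasome adaptor Ecm29, at 0.49 (SE 0.35). AI314180 was at 0.81 in DEHP mouse 4 and between -0.35 and 0.06 in the other 4 mice. Of the ubiquitin and shuttling genes 15 of 18 were measured, 9 above 0 and 6 below. Nploc4, a cofactor of the unfoldase Vcp, differed by 0.08 (SE 0.18), and its groups did not overlap. Rad23b, a shuttle that brings ubiquitinated proteins to the proteasome, had the highest difference of this list, 0.94 (SE 0.51). It was at 1.41 in DEHP mouse 4 and between -0.64 and -0.08 in the other 4 mice, so this difference lay in 1 animal.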

How the data were processed

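Two-colour Agilent arrays of 12 hybridisations were read from the deposited scanner files. Per the file headers, Feature Extraction 9.5.1.1 gave spot intensity (mean signal and median background), processed intensity, the log10 of the red to green ratio, and flags of 0 or 1; the log10 ratio served only to check directions. The authors' deposited value table (13669 rows) holds log2 ratios that correlated with scanner ratios turned DEHP over vehicle at r = 0.915 to 0.993, matched by row order; its filter and normalization are unknown. The submitters' processing notes name limma.

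The rest used limma 3.58.1 in R 4.3.3. Background correction was by normexp (offset 50), arrays were normalized by loess with control spots at weight 0, outlier spots were dropped and spots of a probe averaged. Least squares gave 1 value per mouse and a dye effect. Probes well above background on at least a share of 0.5 of the arrays of at least 2 mice were kept (21198 of 41174), and the brightest stood for its gene. Groups were compared by two-sided lmFit and eBayes on 5 mouse values, Benjamini-Hochberg adjusted, at a threshold of 0.05. Mice of 1 group were compared on the 12 arrays. The number of arrays limits the precision of these values. The functions were tested on simulated data. Probe positions are on mm7.

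Members, lists and tests were chosen with earlier results of these data known. Values by mouse are given for members without overlap, the 2 of lowest p per role, catalytic subunits, Psmd4, Psmd14, the activators, and the 3 largest rises and falls between mice; other genes by overlap or lowest p, of which 1 is not reported here. Psmc1, Psmc6, Psmd8 and others were added after their values were seen.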

Additional observations from a re-analysis of the deposited data

How the results depend on the processing

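Under every alternative that gave a value, 0 members passed the DEHP comparison: processed signals, median centring, no or a stricter filter, mean of probes, current symbols, no dye term, the authors' values, each mouse left out and the replicate block. The members' median of -0.08 became -0.20 when DEHP mouse 1 was left out and 0.07 when DEHP mouse 4 was, and leaving out each mouse gave -0.20 to 0.07. The fits with 1 DEHP mouse assume that it varies like the vehicle mice. On slides 1, 2 and 3 alone the median was -0.02, 0.02 and -0.12, but slide 3 holds only vehicle mouse 4 and slides 1 and 2 only vehicle mice 1 and 2, so slide and vehicle mouse cannot be told apart. A dye effect per slide was not run because it could not be fitted beside the mice. One for slides 1 and 2 with another for slide 3, chosen after seeing the data, gave -0.08 with 0 members called. Neither this nor leaving out the dye term could move a member's DEHP minus vehicle difference. Each DEHP mouse met each vehicle mouse with the dyes both ways round, so the dye effect cancels. The label numbers join only 2 mice of each group, and deviations from the group means of same-numbered mice correlated at r = -0.732 (mice 1) and -0.557 (mice 4), so the numbers were not used as pairs. Signs of single members under the alternatives were followed only for the members given above with values in every mouse. With the replicate block the median over all tested members was -0.05. Of the members followed singly, 5 changed sign with it: Psma6 to -0.05, Psma7 to 0.10, Psmb5 to -0.10, Psmd3 to 0.05 and Psme1 to 0.02. Vehicle mouse 2 is alone in its block, so these values are the same as with vehicle mouse 2 left out and are no separate check. Among the members followed singly, median centring turned Psma5 to 0.05 and Psma7 to 0.04, and processed signals turned Psma7 to 0.01. Over all 33 tested members, median centring moved the count above 0 from 13 to 17, so members not followed singly also turned. Leaving out each mouse in turn gave, among the members followed singly, ranges that cross 0 for Psma2 (-1.05 to 0.22), Psma5 (-0.33 to 0.17), Psma6 (-0.14 to 0.84), Psma7 (-0.33 to 0.33), Psmb3 (-1.0 to 0.14), Psmb5 (-0.10 to 0.16), Psmb6 (-0.23 to 0.01), Psmc4 (-0.53 to 0.02), Psmd3 (-0.72 to 0.49), Psmd6 (-0.38 to 0.23), Psme1 (-0.95 to 0.52) and Psme4 (-0.03 to 0.65). No such range was computed for the other members, Psmc1, Psmc6, Psmb4 and Psmd8 among them, so their signs may be no steadier. Members differing between DEHP mice numbered 16 (of 21, authors' values) to 25, and those between vehicle mice 17 to 26, from 69.7% to 82.1% and from 54.5% to 82.1% of the members tested, against 45.5% to 88.8% and 41.4% to 86.1% of all genes. The cause of these changes was not tested. Psma3, Psma4, Psmb1, Psmb2 and Psmb7, at mean log2 intensities of 6.45 to 6.84, lie close to background, which limits their differences.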
